A study of Homo sapiens with 6 samples.

Results

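The genes described here encode the subunits of the mitochondrial respiratory chain that are read from nuclear DNA. They were picked by gene symbol: all symbols of the NDUFA, NDUFB, NDUFC, NDUFS and NDUFV series, SDHA to SDHD, CYC1 and the UQCR, COX4 to COX8 and ATP5 series, with 2 pseudogenes left out. This gave 87 of the 26475 genes in the count table. Complex I has 37 of them, complex II 4, complex III 10, complex IV 18 (NDUFA4 included) and complex V 16. ATP5S and ATP5SL, the other 2, match the naming pattern but are not known as subunits of the ATP synthase. The symbols are the older ones of the deposited table, and for the ATP synthase the current symbol is added below.

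All 6 libraries came from HepG2, a human liver cancer line labelled as hepatocellular carcinoma, harvested while growing exponentially. Of these, 3 came from cells made to express TAF2, which belongs to TFIID, the factor that places RNA polymerase II at promoters, and 3 from cells expressing enhanced green fluorescent protein (eGFP), the control. The labels give no promoter, vector, clone or time of expression for either protein. Nor do they say if the libraries within a group were grown as separate cultures. All p-values therefore rest on the spread among these 6 libraries, and that spread may be technical.

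The respiratory chain sits in the inner mitochondrial membrane. Complexes I and II take electrons from NADH and from succinate, complex III passes them from ubiquinol to cytochrome c, and complex IV hands them to oxygen. Complexes I, III and IV pump protons, and complex V, the ATP synthase, lets the protons return and makes ATP. Most subunits are nuclear genes scattered over the chromosomes, a few are encoded by mitochondrial DNA, and the complexes need both sets. Liver cells are rich in mitochondria, whereas many tumour lines also make much of their ATP by glycolysis. Mitochondrial genes were not analysed here.

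Total counts ranged from 22276308 to 28024004 per library, and the members held 0.831% of them. TAF2 itself was at 35.8, 40.4 and 37.5 CPM (counts normalised to the scaled library size) in the eGFP libraries and at 50.1, 48.3 and 47.4 CPM in the TAF2 libraries, a log2 fold change of 0.36 (SE 0.0459, adjusted p = 1.44e-08 by edgeR). The 8 hepatocyte markers were all detected, at a mean of 65.5 CPM or more, and their summed level was 43400 to 45090 CPM with eGFP and 35280 to 37090 CPM with TAF2. Of these, 7 fell, ALB and APOA1 among them, and FGB rose. PTPRC and CD3E of immune cells, DCN of fibroblasts and MYH7 of heart muscle were at 0 counts in all 6 libraries. The 6 heart and muscle markers summed to 1.68 to 2.18 CPM with eGFP and 1.42 to 1.88 CPM with TAF2, nearly all of it ACTA1 and CKM. The 3 endothelial markers summed to 0.295 to 1.08 CPM with eGFP and 0.549 to 0.714 CPM with TAF2. The 4 fibroblast markers summed to 8.14 to 9.22 CPM with eGFP and 20.3 to 21.8 CPM with TAF2, nearly all of it PDGFRB. The 4 immune markers summed to 1938 to 2055 CPM with eGFP and 2269 to 2321 CPM with TAF2, nearly all of it LYZ, which rose, while CD68 fell from 47.2 to 35.8 CPM. The part of these shifts in the respiratory chain results was not tested.

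To see whether TAF2 cells differed from eGFP cells in respiratory chain transcripts, the members were read out of an edgeR quasi-likelihood test over all 12902 testable genes, with p-values adjusted over all of them (threshold 0.05). Differences were small and went both ways, with more members lower than higher. Of the 80 members tested, 10 were higher with TAF2, 21 were lower and 49 did not pass the test. That is 38.8% called, against 43.0% of all genes tested. In all genes tested 20.6% were higher and 22.4% were lower. The 3 TAF2 libraries did not overlap the 3 eGFP libraries for 35 members (43.8%), against 50.6% of all genes. The median log2 fold change was -0.03 for the members and -0.003 for all genes. The median size of the difference, whatever its sign, was 0.061 on the log2 scale for the members and 0.102 for all genes averaging 10 CPM or more. Members ranged from -0.43 for NDUFS8 to 0.25 for NDUFA10. Their summed level was 8514, 8258 and 8371 CPM in the eGFP libraries and 8171, 8253 and 8270 CPM in the TAF2 libraries, so these sums overlapped. CPM are shares of a library, and in bulk RNA fewer cells with a transcript and less of it per cell cannot be told apart.

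**Figure D1:**
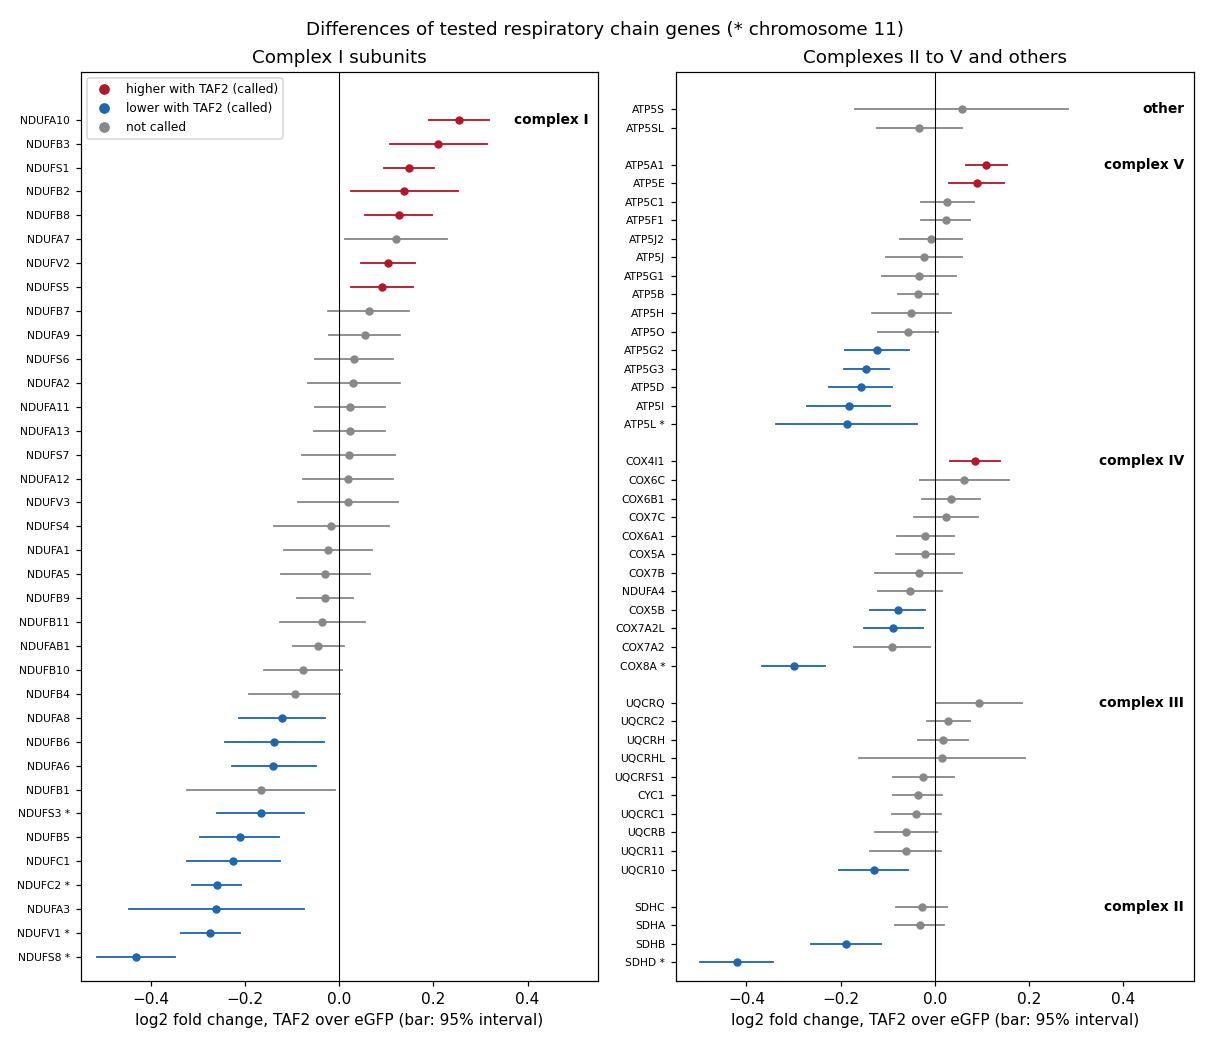
Log2 fold change (TAF2 over eGFP, 3 libraries each) of 79 of the 80 tested members, by complex, with 95% intervals as bars. Points in colour passed the adjusted threshold, and an asterisk marks the 7 members on chromosome 11, all of them lower.

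The other 7 members were not tested. COX6A2, COX7A1, COX7B2 and COX8C had 0 counts in all 6 libraries, where 3 counts would be 0.107 to 0.135 CPM. COX4I2, COX6B2 and ATP5L2 had 0 to 3 counts per library. COX6A2 and COX7A1 are the heart and muscle forms of their subunits, and COX6B2, COX7B2 and COX8C are forms known from testis. The ubiquitous counterparts COX6A1, COX6B1, COX7A2, COX7B and COX8A were all measured in these cells.

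The stretches upstream of the 3 members with the largest falls and the member with the largest rise are shown because these 4 genes frame the range of the data. All come from RefSeq on GRCh38.p14 and run 5′ to 3′ on the strand of the gene. Capitals mark a match on either strand to the binding motif of nuclear respiratory factor 1 (NRF1, GCGC-N-TGCGC) or of ETS factors, the family of GABPA (CCGGAAGT, which reads ACTTCCGG on the other strand). Both kinds of factor are known regulators of respiratory chain genes. For SDHD only the sites are shown, at chr11:112086756-112086779 and chr11:112086787-112086810, plus strand. The NRF1 match begins 110 bases and the ETS match 78 bases before the RefSeq start. Both SDHD stretches lie within exons annotated by GENCODE on either strand (24 of 24 bases in each). Of the COX8A stretch, 13 of 120 bases do. NDUFS8 is shown at chr11:68030497-68030616 (plus strand), COX8A at chr11:63974500-63974619 (plus strand, ETS match 19 bases before the start) and NDUFA10 at chr2:240025403-240025522 (minus strand).
SDHD, NRF1 site: tgtgtttGCGCATGCGCgacgggt
SDHD, ETS site: gcctctcgACTTCCGGttcaccca
NDUFS8: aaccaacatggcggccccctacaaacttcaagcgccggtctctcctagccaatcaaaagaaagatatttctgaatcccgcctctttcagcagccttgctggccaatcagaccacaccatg
COX8A: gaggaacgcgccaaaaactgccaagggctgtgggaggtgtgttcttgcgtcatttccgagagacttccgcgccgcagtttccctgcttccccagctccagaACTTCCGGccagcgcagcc
NDUFA10: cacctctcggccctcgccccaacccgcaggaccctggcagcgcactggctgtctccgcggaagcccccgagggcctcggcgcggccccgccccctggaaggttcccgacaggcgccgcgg

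In windows of 300 bases around the start (250 before, 50 after), the NRF1 motif was found in 15 of 65 tested members with an entry (23.1%) and in 12.3% of 9696 tested protein-coding genes. The ETS motif was found in 9 of the 65 (13.8%) against 9.22%, the YY1 motif AAGATGGC in 11 (16.9%) against 5.62%, and the letters TATAAA in 6 (9.23%) against 5.29%. Among the 9 higher members with an entry, 0 held the NRF1 motif and 0 the YY1 motif, and 1 held the ETS motif. Among the 17 lower members the counts for NRF1, YY1 and ETS were 5, 3 and 3, and among the 39 not called they were 10, 8 and 5. TATAAA stood in 0 of the 9 higher, 0 of the 17 lower and 6 of the 39 not called. NRF1 matches therefore occurred both in lower members such as SDHD and in members that did not pass the test. None of the 4 motifs, as spelled here, stood in the windows of NDUFS8 and NDUFA10, the members with the largest fall and the largest rise. Sites that vary from these letters were not counted. The stretch of NDUFS8 holds aacatggc, which differs from the YY1 letters in 1 base.

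Complex I, the NADH dehydrogenase, had 7 members higher and 10 lower of 37 tested (45.9% called, against 43.0% of all genes tested). Its median log2 fold change was -0.017. By DESeq2 11 of the 37 were called, and of all genes 2078 were higher and 2229 lower, against 2662 and 2886 by edgeR. Both directions occurred among the 7 core subunits, the set conserved from bacteria that carries the flavin and the iron-sulfur clusters. NDUFS8, NDUFV1 and NDUFS3 fell, and NDUFS1 and NDUFV2 rose. NDUFS8, an iron-sulfur subunit near the ubiquinone site, was at 62.1, 57.3 and 60.5 CPM with eGFP and at 45.0, 43.6 and 44.9 CPM with TAF2. The groups lay far apart, with every TAF2 library at least 12 CPM below the lowest eGFP library. The log2 fold change was -0.43 (SE 0.0412, adjusted p = 9.86e-12 by edgeR), the largest fall among the members.

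NDUFV1, which binds NADH and holds the flavin, was at 126, 119 and 129 CPM with eGFP and at 105, 105 and 99.8 CPM with TAF2. All 3 TAF2 libraries were below all 3 eGFP libraries, and the log2 fold change was -0.27 (SE 0.0311, adjusted p = 9.97e-10 by edgeR). NDUFV1 works beside NDUFV2 and NDUFS1 in the NADH-oxidising module, and those partners went the other way. NDUFS1 was at 176, 166 and 168 CPM with eGFP and at 188, 186 and 191 CPM with TAF2, without overlap (log2 fold change 0.15, SE 0.0264, adjusted p = 1.26e-05 by edgeR). NDUFV2 was at 112, 113 and 111 CPM with eGFP and at 121, 121 and 119 CPM with TAF2, also without overlap (log2 fold change 0.10, SE 0.0283, adjusted p = 0.00267 by edgeR). Within this module of 3 core subunits the transcripts therefore moved in opposite directions by 7.43% to 17.3%. NDUFS3, a further core subunit (log2 fold change -0.17, adjusted p = 0.00333 by edgeR), was at 66.4 ± 4.93 CPM with eGFP and fell to 59.3 ± 2.32 CPM with TAF2 (SD, n = 3 each), and its lowest eGFP library (61.01 CPM) lay within 0.01 CPM of its highest TAF2 library.

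Among the 30 accessory subunits of complex I, which surround the core and have no redox centre, 5 were higher and 7 lower. That is 40% called, against 43.0% of all genes tested. NDUFA10, of the membrane arm, had the largest rise of all members. It was at 89.4, 84.9 and 89.7 CPM with eGFP and at 104, 104 and 107 CPM with TAF2, with a wide gap between the groups. Its log2 fold change was 0.25 (SE 0.0316, adjusted p = 8.54e-09 by edgeR). NDUFB3, also of the membrane arm, was at 28.14, 31.00 and 28.03 CPM with eGFP and at 33.60, 34.03 and 33.02 CPM with TAF2, again without overlap (log2 fold change 0.21, SE 0.051, adjusted p = 0.000789 by edgeR). NDUFB8, whose protein is widely used as a marker of assembled complex I, rose by 9.15% (adjusted p = 0.00329 by edgeR), with TAF2 libraries at 72.8 to 76.4 CPM above eGFP libraries at 67.5 to 69.8 CPM.

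The accessory subunits that fell most were NDUFC2, NDUFC1, NDUFB5 and NDUFA3. NDUFC2 was at 175, 172 and 168 CPM with eGFP and at 142, 145 and 142 CPM with TAF2, a clear separation with a log2 fold change of -0.26, uncertain in that some of its reads fit other genes too (SE 0.0263, adjusted p = 4.43e-11 by edgeR). NDUFC1, like NDUFC2 a small membrane arm subunit, was at 37.80, 35.95 and 40.26 CPM with eGFP and at 32.10, 32.85 and 32.69 CPM with TAF2 (log2 fold change -0.22, SE 0.0487, adjusted p = 0.000198 by edgeR). NDUFB5 was at 50.2, 50.2 and 48.9 CPM with eGFP and at 41.9, 43.8 and 43.2 CPM with TAF2, so that the highest TAF2 library stayed below the lowest eGFP library. Its log2 fold change was -0.21 (SE 0.0418, adjusted p = 5.39e-05 by edgeR). NDUFA3 was at 12.4, 10.2 and 10.2 CPM with eGFP and at 9.45, 8.83 and 9.17 CPM with TAF2. The first eGFP library stood above the other two, and the log2 fold change of -0.26 (SE 0.0918, adjusted p = 0.0188 by edgeR) became -0.15 (adjusted p = 0.243) without it. The call was also lost without TAF2 replicate 2 (adjusted p = 0.0661) or TAF2 replicate 3 (adjusted p = 0.0515), and by DESeq2. NDUFAB1, the mitochondrial acyl carrier protein, and NDUFB9 had the highest CPM of the members of complex I not called. Their 95% intervals were -0.10 to 0.01 and -0.09 to 0.03 on the log2 scale.

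The other called members of complex I changed by less than 11% and depended more on single libraries and on the processing. NDUFA6, NDUFA8 and NDUFB6 fell by 0.14, 0.12 and 0.14 on the log2 scale, and NDUFS5 and NDUFB2 rose by 0.09 and 0.14. None of them was called by DESeq2. NDUFA8 and NDUFB6 also lost the call with upper-quartile scaling, and NDUFA8 without a filter. NDUFB2 lost it with TMM factors from genes outside chromosomes 4 and 11 too. NDUFA6 was not called without eGFP replicate 1, NDUFA8 without eGFP replicate 2 or TAF2 replicate 1, and NDUFB6 without eGFP replicate 1, TAF2 replicate 1 or TAF2 replicate 2. NDUFS5 was not called without eGFP replicate 3 or TAF2 replicate 1. NDUFB2 was not called without eGFP replicate 2 or 3 or without TAF2 replicate 2 or 3, and its groups overlapped. Leaving out these libraries gave adjusted p-values of 0.0566 for NDUFA6, 0.125 and 0.171 for NDUFA8, 0.0623 to 0.26 for NDUFB6, 0.077 and 0.0795 for NDUFS5 and 0.09 to 0.195 for NDUFB2.

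**Figure D2:**
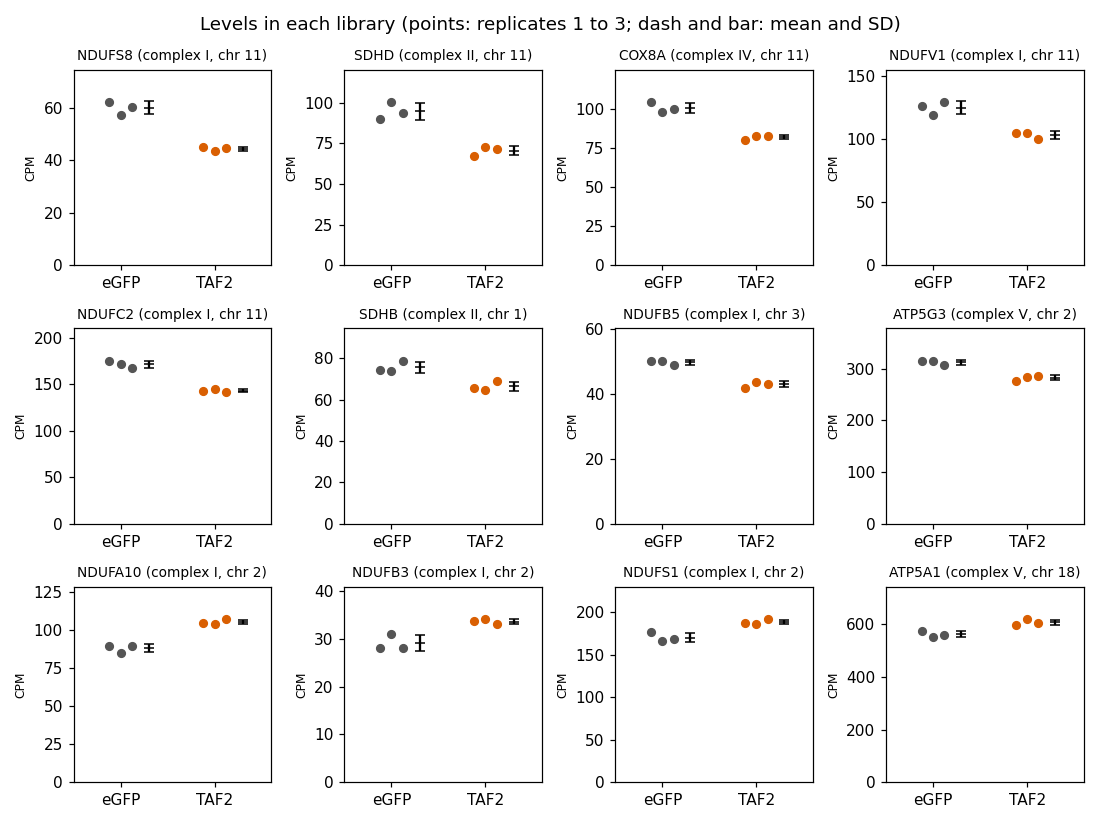
CPM in each library (points, replicates 1 to 3 from left to right, with mean and SD beside them) for 12 members, axes from 0. The upper 8 panels show members that fell and the lower 4 show members that rose. In all 12 panels the TAF2 libraries lie wholly on 1 side of the eGFP libraries.

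Complex II, succinate dehydrogenase, belongs both to the respiratory chain and to the citric acid cycle and has 4 subunits, all nuclear. Of these, 2 fell and 2 did not pass (50% called, against 43.0% of all genes tested). All 4 fold changes were below 0 (median log2 -0.11). SDHD, which with SDHC anchors the enzyme in the membrane and holds the ubiquinone site, was at 89.9, 100.3 and 93.8 CPM with eGFP and at 67.3, 72.6 and 71.8 CPM with TAF2. The groups were far apart, and the log2 fold change was -0.42 (SE 0.0381, adjusted p = 3.75e-11 by edgeR). SDHB, the iron-sulfur subunit, was at 74.3, 74.0 and 78.8 CPM with eGFP and at 65.4, 64.8 and 68.9 CPM with TAF2, without overlap (log2 fold change -0.19, SE 0.0368, adjusted p = 4.57e-05 by edgeR). The flavoprotein SDHA was at 243, 229 and 233 CPM with eGFP and at 233, 224 and 232 CPM with TAF2, and these overlapped. The 95% interval of its log2 fold change ran from -0.08 to 0.02. That of SDHC, the other anchor subunit, ran from -0.08 to 0.03 around -0.028. The 2 anchor subunits thus differed in size of change, with intervals that did not overlap. The difference between them was not tested. Summed over the 4 genes, complex II was at 549.9, 542.9 and 542.4 CPM with eGFP and at 502.6, 497.1 and 511.7 CPM with TAF2, a difference of -7.57%, of which SDHD holds the largest part. Some annotated first exons of SDHD and of TIMM8B on the opposite strand overlap. Whether strand was used in counting is not given in the sources used here, so reads from that overlap cannot be told apart.

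Complex III, the cytochrome bc1 complex, had 1 of 10 members called (10%, against 43.0% of all genes tested), the smallest share of the 5 complexes. That was UQCR10, a small subunit, at 66.5, 64.7 and 65.8 CPM with eGFP and at 59.8, 60.0 and 60.2 CPM with TAF2. The libraries of each group were tightly grouped and did not overlap, and the log2 fold change was -0.13 (SE 0.0366, adjusted p = 0.00362 by edgeR). The core proteins UQCRC1 and UQCRC2 had intervals of -0.09 to 0.01 and -0.02 to 0.07. Cytochrome c1 (CYC1) was at -0.036 and the Rieske iron-sulfur protein (UQCRFS1) at -0.024 on the log2 scale, neither called. The median of the complex was -0.03, and it was -0.004 without eGFP replicate 1. Without TAF2 replicate 2, a further member was called, making 2.

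Complex IV, cytochrome c oxidase, had 1 member higher and 3 lower of 12 tested (33.3% called, against 43.0% of all genes tested). COX8A, its smallest subunit, had the one large change. It was at 104, 97.7 and 99.8 CPM with eGFP and at 80.2, 82.6 and 82.3 CPM with TAF2, clearly separate, with a log2 fold change of -0.30 (SE 0.0326, adjusted p = 3.33e-10 by edgeR). The other 3 calls were small. COX4I1, a regulatory subunit, was at 244, 224 and 235 CPM with eGFP and at 247, 247 and 252 CPM with TAF2 (log2 fold change 0.09, adjusted p = 0.0067 by edgeR). COX5B and COX7A2L, the latter known for joining complexes III and IV in supercomplexes, were at -0.08 and -0.09 (adjusted p = 0.0249 and 0.0194 by edgeR). COX4I1 was not called without TAF2 replicate 3 (adjusted p = 0.0521). COX5B was not called without replicate 1 or 3 of eGFP or replicate 1 or 3 of TAF2 (0.0621 to 0.131). COX7A2L was not called without eGFP replicate 1 or 3 or TAF2 replicate 2 (0.0516 to 0.0829). Both COX5B and COX7A2L also lost the call by DESeq2, with upper-quartile scaling and without a filter. The complex then had 2 called members without eGFP replicate 1 or 3 or TAF2 replicate 3, and 2 by DESeq2. COX5A and COX6A1, the members not called with the highest CPM, had intervals of -0.08 to 0.04 on the log2 scale.

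Complex V, the ATP synthase, had 2 members higher and 5 lower of 15 tested (46.7% called, against 43.0% of all genes tested). The catalytic F1 part has 5 genes. Its alpha subunit ATP5A1 (ATP5F1A) was at 573, 552 and 560 CPM with eGFP and at 598, 618 and 603 CPM with TAF2, without overlap, a log2 fold change of 0.11 (SE 0.0217, adjusted p = 4.96e-05 by edgeR). The beta subunit ATP5B (ATP5F1B), which carries the catalytic sites, did not pass (interval -0.08 to 0.01). The small subunits of the central stalk split. ATP5D (ATP5F1D, delta) was at 83.5, 82.7 and 82.4 CPM with eGFP and at 74.3, 74.2 and 74.6 CPM with TAF2, closely grouped on either side (log2 fold change -0.16, SE 0.0333, adjusted p = 0.00015 by edgeR). ATP5E (ATP5F1E, epsilon) rose from a mean of 131 ± 4.93 CPM to 140 ± 3.75 CPM (SD, n = 3 each), a log2 difference of 0.09 (adjusted p = 0.0123 by edgeR). That call was lost without eGFP replicate 2 (0.0799) or TAF2 replicate 3 (0.0721).

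Of the 11 genes for the membrane-bound Fo part and the peripheral stalk, 10 were tested, 4 fell and 0 rose. That is 40% called, against 43.0% of all genes tested. ATP5G3 (ATP5MC3), 1 of 3 genes for the same proton-carrying c subunit, was at 315, 315 and 307 CPM with eGFP and at 277, 284 and 286 CPM with TAF2. The groups did not overlap, and the log2 fold change was -0.15 (SE 0.0233, adjusted p = 1.63e-06 by edgeR). A further c-subunit gene, ATP5G2 (ATP5MC2), fell by 0.12 on the log2 scale, and ATP5G1 did not pass (interval -0.11 to 0.05). The subunits e and g, which bend the membrane where ATP synthases pair, were lower too. ATP5I (ATP5ME, e) fell from a mean of 47.7 ± 2.11 CPM to 42.1 ± 0.796 CPM (SD, n = 3 each), without overlap and with an adjusted p of 0.000633 by edgeR. ATP5L (ATP5MG, g) was at 110, 96.2 and 111 CPM with eGFP and at 93.7, 88.7 and 97.1 CPM with TAF2. Its groups overlapped, and its edgeR adjusted p was 0.0496. It was not called without eGFP replicate 1 or 3 or without TAF2 replicate 1 or 2 (0.0737 to 0.11). The call was also lost with upper-quartile or RLE scaling. Summed over all genes of each part, the F1 part was at 1773, 1718 and 1734 CPM with eGFP and at 1733, 1789 and 1783 CPM with TAF2, which overlapped. The Fo part and stalk were at 1122, 1085 and 1116 CPM with eGFP and at 1032, 1046 and 1058 CPM with TAF2, which did not overlap (-5.59%). ATP5G3 holds the largest part of that difference, and 6 of the 10 tested genes did not pass. No p is given for these sums. ATP5S and ATP5SL did not pass.

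**Figure D3:**
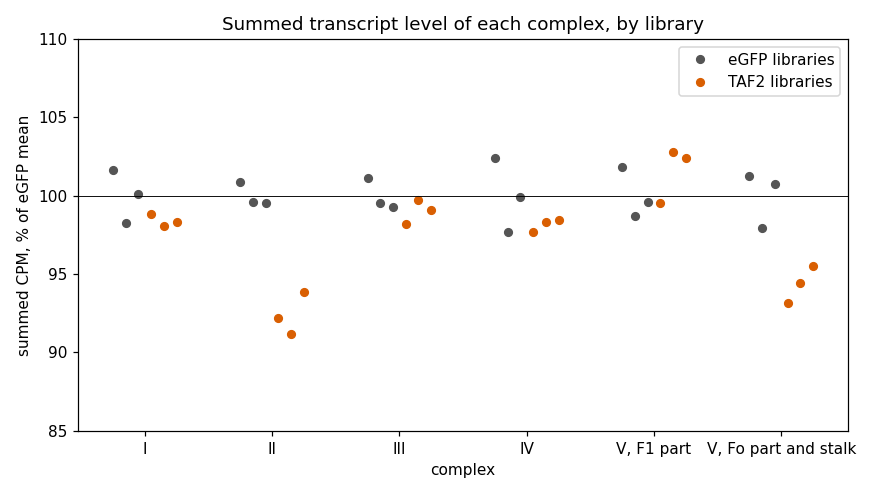
Summed CPM of each complex (complex V in 2 parts) in each library, as a percent of the mean of the 3 eGFP libraries. The vertical axis starts at 85%. Complex II and the Fo part of complex V are the groups whose TAF2 libraries lie below all eGFP libraries, at 497.1 to 511.7 CPM and 1032 to 1058 CPM.

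The called members were next placed on the genome (RefSeq positions, GRCh38.p14). The 7 members on chromosome 11 (NDUFS8, NDUFV1, NDUFC2, NDUFS3, SDHD, COX8A and ATP5L) were all lower, with a median log2 fold change of -0.27. All 719 tested genes of chromosome 11 had a median of -0.28, and 534 of them were lower. On chromosome 4, NDUFC1 and ATP5I were lower, as were 240 of the 412 tested genes there (median -0.18). The members on both chromosomes summed to 823.4, 785.2 and 819.5 CPM with eGFP and to 668.6, 668.9 and 672.9 CPM with TAF2, a difference of -17.2%. Chromosomes 4 and 11 were set apart with these values known, so the contrast with the rest is only a description. Elsewhere in the genome the members summed to 7572 ± 110 and 7561 ± 51.1 CPM (SD, n = 3 each), a difference of -0.14%. Of these 71 tested members, 10 were higher and 12 lower (31.0% called). The 43.0% called of all genes tested includes chromosomes 4 and 11, where 64.1% and 77.2% were called. No share was computed for all genes outside chromosomes 4 and 11. Which direction had more calls among the 71 members depended on the processing. There were 10 higher and 7 lower without eGFP replicate 1, 8 and 6 by DESeq2, and 12 and 8 with upper-quartile scaling. Over all genes tested, the same settings gave 2414 higher and 2591 lower, 2078 and 2229, and 3001 and 2675. The main fit gave 2662 and 2886.

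Each member was also set beside the other genes within 5 Mb of it that averaged 5 CPM or more, members left out, a window chosen after the chromosome pattern had been seen. Over the 80 members, the log2 fold change of a member and the median of its neighbours had a Pearson correlation of 0.777 and a Spearman correlation of 0.66. Members near each other share neighbours and all points share the same 6 libraries, so this is a description. NDUFA10, NDUFB3 and NDUFS1, the 3 members with the largest rises, all lie on the long arm of chromosome 2. They stood at 0.25, 0.21 and 0.15, beside neighbour medians of 0.25, 0.22 and 0.15. NDUFV1 (-0.27) and COX8A (-0.30) stood beside neighbour medians of -0.28 each. SDHB on chromosome 1 stood at -0.19 beside -0.18.

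In all, 10 members had a neighbour median of -0.15 or below, of which 9 were lower and 1, UQCRHL, did not pass. UQCRHL (chromosome 1) was at 0.02 beside a neighbour median of -0.20. It is an intronless copy of UQCRH, its expected counts were not whole numbers, and so its value is uncertain. The 3 members with a neighbour median of 0.15 or above were NDUFA10, NDUFB3 and NDUFS1, all higher. The other members on chromosome 2, ATP5G3, COX5B and COX7A2L, were lower and had neighbour medians of -0.062, -0.034 and -0.013. The other 67 members lay among genes whose median was nearer to 0, and cuts other than 0.15 were not tried. There 7 were higher, 12 were lower and 48 did not pass (28.4% called). By complex, these were 4 higher and 5 lower of 29 in complex I and 0 of 2 called in complex II. In complex III 1 of 9 was lower, in complex IV 1 was higher and 2 lower of 11. In complex V 2 were higher and 4 lower of 14. Among them, ATP5A1 (0.11) and ATP5I (-0.18) had neighbour medians of 0.129 and -0.148, close to the cut. The share called among all genes with such neighbours was not computed. The 43.0% of all genes tested includes those of chromosome 11, where 77.2% were called.

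Some members differed from the genes around them. SDHD (-0.42 beside -0.30) and NDUFS8 (-0.43 beside -0.27) were lower than their neighbour medians and just below the lower quartiles of those neighbours (-0.37 and -0.38). NDUFA3 on chromosome 19 (-0.26 beside 0.06) and NDUFB5 on chromosome 3 (-0.21 beside 0.001) fell where neighbours did not. Of these, NDUFA3 is the one whose call rested on single libraries. ATP5D (-0.16 beside 0.02), ATP5G2 (-0.12 beside 0.03) and UQCR10 (-0.13 beside 0.02) also fell among genes with medians near 0, as NDUFB8 rose (0.13 beside 0.002). None of these differences from neighbours was tested.

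**Figure D4:**
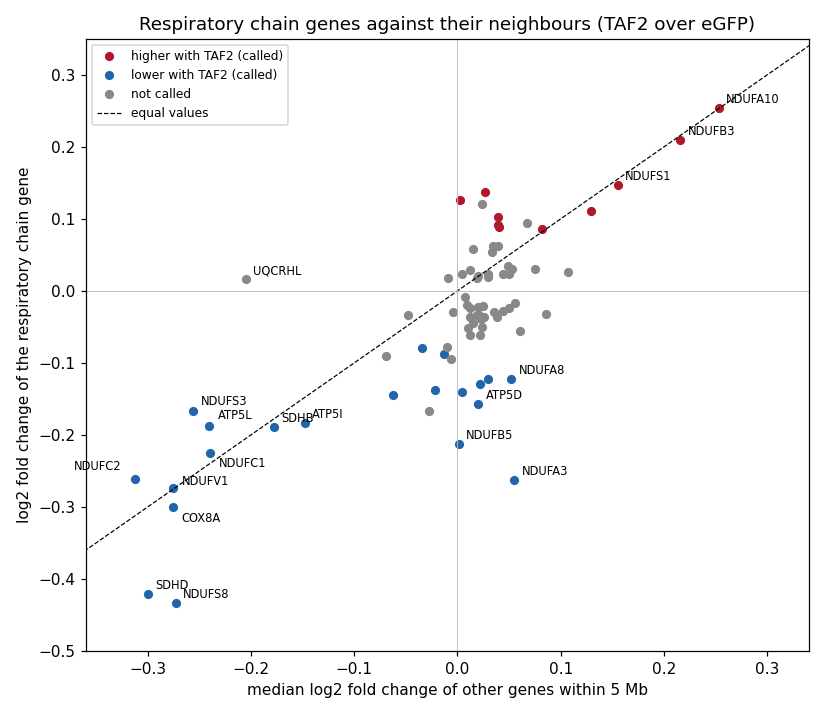
Log2 fold change of each tested member (vertical) against the median log2 fold change of the other genes within 5 Mb (horizontal), with a dashed line of equal values. Members on chromosome 11 lie at the lower left, NDUFA10, NDUFB3 and NDUFS1 at the upper right, and most members not called near 0 on both axes.

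Several members start close to another gene read in the opposite direction. Of members with an entry in the promoter table, 17 had a tested partner, also with an entry, starting within 1000 bases upstream. Partners without an entry, or starting downstream of the member's start, were not counted. In 3 of the 17 pairs both genes were called. The 43.0% called of all genes tested is a share of single genes, so it is no measure for pairs. The share of pairs with both genes called was not computed for all genes. NDUFS3 fell with KBTBD4 (-0.17 and -0.28), ATP5A1 rose with HAUS1 (0.11 and 0.23), and COX4I1 rose with EMC8 (0.09 and 0.13). The median of the genes within 5 Mb had the same sign in each case, at -0.26, 0.13 and 0.08. These 6 genes were named after their values had been seen, and without strand information reads near such shared starts may be credited to either gene.

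The genes that build and regulate the chain are not members and were examined for context. Of 48 assembly factors, 7 were higher, 13 lower and 28 not called. Among all genes tested 20.6% were higher and 22.4% lower. On chromosome 11, 4 of 5 were lower, and elsewhere 7 of 43 were higher and 9 lower. COA4, a complex IV factor on chromosome 11, had the smallest p of the list and fell from a mean of 66.5 ± 2.02 CPM to 45.2 ± 2.57 CPM (SD, n = 3 each), a log2 difference of -0.56 (adjusted p = 1.14e-14 by edgeR). SDHAF2, which helps insert the flavin of SDHA, and UQCC3, a complex III factor, both on chromosome 11, fell by 0.33 and 0.42 on the log2 scale. Off that chromosome, SDHAF4 (-0.59, at 3.02 and 2.01 CPM) and COA3 (-0.25) fell, and the complex I factors NDUFAF6 (0.30) and NUBPL (0.23) rose. The complex I factors TMEM126B (-0.32, chromosome 11) and NDUFAF4 (-0.16, chromosome 6) fell. Of all 14 complex I factors, 3 were higher and 2 lower.

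Of 12 regulators of mitochondrial biogenesis, 3 were higher and 2 lower (41.7% called, against 43.0% of all genes tested). The coactivators PPARGC1B and PPRC1 rose, from 11.4 ± 1.13 to 14.5 ± 0.676 CPM and from 92.4 ± 0.908 to 102.2 ± 3.56 CPM (SD, n = 3 each; adjusted p = 0.000304 and 0.000198 by edgeR). PPARGC1A, a further coactivator of the list, leaned the other way, with means of 28.85 CPM with eGFP and 26.07 CPM with TAF2. It did not pass (log2 fold change -0.145, adjusted p = 0.0549 by edgeR). ESRRA, a nuclear receptor that binds many respiratory chain promoters, fell from 73.0 ± 2.00 to 59.6 ± 1.72 CPM (SD, n = 3 each; adjusted p = 1.23e-08 by edgeR). It lies on chromosome 11, and its log2 fold change of -0.29 stood beside a neighbour median of -0.27. Cytochrome c (CYCS), the carrier between complexes III and IV, and ATPIF1, the inhibitor of the ATP synthase, did not pass (-0.035 and -0.058). Of the other enzymes of the citric acid cycle, 2 of 13 were higher and 3 lower (38.5% called). Among 77 mitochondrial ribosomal protein genes 6 were higher and 16 lower (28.6% called). The difference between these lists and the respiratory chain was not tested.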

How the data were processed

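RNA was sequenced from HepG2 cells expressing TAF2 or eGFP, 3 libraries each, grouped by their titles. The authors deposited expected counts by gene in a single table, made with RSEM for hg38 per the submitters' processing notes. Aligner, annotation release and strand use were not given in the sources used here. RSEM divides reads that fit several genes, so expected counts of ATP5E, ATP5J2, NDUFC2, SDHA, UQCRH and UQCRHL were not whole numbers, and these values are less certain. The table has 26475 genes, 17454 with a count, and 0 columns were left unused.

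Expected counts were rounded, filtered with filterByExpr (12902 genes), scaled by TMM (factors 0.9976 to 1.003) and tested by the quasi-likelihood method of edgeR 4.0.16 (R 4.3.3; group as the only term, robust), with Benjamini-Hochberg adjustment over all tested genes and a threshold of 0.05. The biological coefficient of variation was 2.75%, which lets small differences be called. The scripts were tested on simulated data. Intervals are 95% intervals of the fit, and CPM use scaled library sizes. Libraries within a group showed more than sampling noise between them (chi-square/df 1.979 to 5.879), and none was treated as a copy. Positions were matched by RefSeq accession to GRCh38.p14, and promoter windows, 1 per gene at its outermost start, by gene.

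Members and lists were chosen with earlier results of these data known. Named members are those called with a log2 change of at least 0.2, up to 3 further called members and the 2 highest not called in each complex, and those not tested. From other lists up to 3 called genes with the smallest p are named. Other genes in the text were chosen after their values were seen. The 13 alternatives were other scalings (upper quartile, RLE, TMM from genes outside chromosomes 4 and 11), DESeq2 1.42.0, 2 other filters, a replicate block and leaving out each library. The values of 1 member are not reported here, though counts and sums include it.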

Additional observations from a re-analysis of the deposited data

How the results depend on the processing

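For 43 members, 511 of 559 values under the 13 alternatives kept their side of the threshold, and 48 kept the direction but were no longer called. The sign changed in 2 values, both of members not called: ATP5S (0.057) was at -0.018 without eGFP replicate 2, and ATP5SL (-0.033) was at 0.015 without TAF2 replicate 1. Of the calls, 6 of 10 higher and 14 of 21 lower ones held under all 13. By DESeq2, complex I had 11 called members (17 in the edgeR fit), complex IV 2 and the members outside chromosomes 4 and 11 had 6 lower (12 in the edgeR fit). DESeq2 also called fewer of all genes, 2078 higher and 2229 lower, against 2662 and 2886 by edgeR. With upper-quartile scaling complex III had 2 called members and complex IV 2, and without a filter complex IV had 2. The causes of these changes were not tested. Leaving out 1 library at a time gave 1 to 2 called members in complex III, 2 to 5 in complex IV, 7 to 13 lower members outside chromosomes 4 and 11, and medians of -0.029 to -0.004 for complex III. Leaving out libraries also gave 7 to 10 higher and 15 to 22 lower members in all. Of all genes tested, these fits called 2282 to 2631 higher and 2518 to 2699 lower.

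With the replicate number as a block, 9 members were higher and 21 lower, and 5250 genes were called in place of 5548. The labels do not say that numbers pair the libraries, and same-numbered libraries did not deviate together (r = -0.0446, -0.0905 and -0.103, none the best match of its library), so the numbers were not taken as pairs. NDUFB2 lost its call under the block (edgeR adjusted p = 0.0596). The correlation of members with their neighbours was 0.733 with a window of 2 Mb and 0.773 with 10 Mb, both windows added after seeing the data. Upper-quartile scaling moved the median of all genes by 0.0138 on the log2 scale. For the 7 members with 0 to 3 counts per library, a difference was not detectable at this depth.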
